A study of Mus musculus with 8 samples.

Results

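The genes described here are 36 genes of intraepithelial T lymphocytes, chosen by symbol from the 54139 genes of the deposited tables. The rule itself used no measured value, but earlier results of these data were known when genes and lists were chosen. RNA sequencing of mouse intestinal epithelial cells gave 8 libraries in 2 groups. The 4 WT libraries carried Villin-Cre alone, and the 4 cKO libraries carried a floxed Rictor allele together with Villin-Cre. Both groups thus carry the Cre driver, whose villin promoter directs recombination to the epithelium, while the genes described here belong to cells that lie within it and are of another lineage. The labels give no strain, age, sex, number of floxed alleles, intestinal segment or method of isolating the cells. Nor do they tie a library to its own mouse, so every p-value below refers to the spread among the libraries sequenced, which may in part be technical.

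Intraepithelial lymphocytes are T cells that reside between the epithelial cells of the gut, so that a preparation of intestinal epithelium also holds their RNA. Most carry CD8 as a pair of alpha chains, many carry the gamma delta form of the T cell receptor, and they store granzymes in a resting state. The receptor signals through the CD3 chains, the kinases LCK and ZAP70 and the adaptor LAT. The integrin chain CD103 holds the cells to E-cadherin on the epithelium, and interleukin 15 and interleukin 7 sustain them. Because bulk RNA was measured, a lower level can mean fewer of these cells or less RNA per cell, and these cannot be told apart.

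The promoters of 2 CD3 genes and 2 granzyme genes are shown first because their transcripts went up and down together from library to library. They are RefSeq sequences of build GRCm38.p6, 250 bases before the annotated start, written 5′ to 3′ on the strand of the gene. Cd3g and Cd3d lie head to head on chromosome 9 with 1.35 kb between them. Capitals mark the ETS core CAGGAA or CCGGAA and the RUNX core TGTGGT, each searched on both strands. The match in Gzma is on the opposite strand and reads ACCACA here.
Cd3d chr9:44981536-44981785 (plus strand, 1 ETS core): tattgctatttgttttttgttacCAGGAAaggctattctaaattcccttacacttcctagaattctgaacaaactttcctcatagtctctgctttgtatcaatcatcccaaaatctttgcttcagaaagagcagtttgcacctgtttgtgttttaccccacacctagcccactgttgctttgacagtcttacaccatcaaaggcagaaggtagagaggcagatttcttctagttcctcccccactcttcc
Cd3g chr9:44980432-44980681 (minus strand, no match to either core): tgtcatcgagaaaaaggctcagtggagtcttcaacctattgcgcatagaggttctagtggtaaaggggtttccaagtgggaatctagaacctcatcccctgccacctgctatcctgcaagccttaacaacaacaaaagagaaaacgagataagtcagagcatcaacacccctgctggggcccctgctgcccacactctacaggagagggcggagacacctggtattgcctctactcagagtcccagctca
Gzma chr13:113100982-113101231 (minus strand, 1 RUNX core): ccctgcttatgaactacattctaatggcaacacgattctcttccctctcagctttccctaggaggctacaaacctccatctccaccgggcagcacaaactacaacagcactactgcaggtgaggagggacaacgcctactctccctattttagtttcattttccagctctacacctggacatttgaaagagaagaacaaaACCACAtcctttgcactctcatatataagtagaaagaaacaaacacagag
Gzmb chr14:56262335-56262584 (minus strand, 2 RUNX cores): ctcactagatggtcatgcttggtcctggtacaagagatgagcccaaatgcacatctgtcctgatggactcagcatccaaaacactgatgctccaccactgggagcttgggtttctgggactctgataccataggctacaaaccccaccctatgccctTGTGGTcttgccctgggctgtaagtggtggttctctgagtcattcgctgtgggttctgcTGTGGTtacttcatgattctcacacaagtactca

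RefSeq promoters were matched for 21 of the 36 genes, with 28 windows in all. The RUNX core was in 12 of the 28 windows (42.9%), beside 14.0% of the 32851 promoter windows of the same length in the table, and the ETS core was in 20 (71.4%), beside 35.1%. Counted by gene, 11 of the 21 held the RUNX core and 17 the ETS core in any window. Windows of the same gene are not independent, and those of Ptprc overlap and share their ETS match. RUNX3 and ETS1 are transcription factors of T cells, but a match of these letters is a description of the window and not a binding site. Cd3g, which has neither core in its window, was like Cd3d highest in cKO library 3.

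Levels are given as CPM (counts relative to the TMM-scaled total of the library) when libraries are compared, and as FPKM (the deposited values, corrected for gene length and library size) when genes are compared. Total counts lay between 15110451 and 18708335 per library, and the 36 genes made up 0.0241% to 0.0922% of them. Mitochondrial genes took 5.28% to 7.71%, and no pair of libraries in a group agreed within sampling noise. Rictor, the targeted gene, was at 41.7 to 57.3 CPM in WT and 20.8 to 40.6 CPM in cKO, with the lowest value in cKO library 3, the library in which most of the lymphocyte genes were highest. For Rictor cKO differed from WT by -0.55 ± 0.20 on the log2 scale (SE; adjusted p = 0.921 in edgeR), and the deposited gene values do not separate exons inside and outside the floxed part. The epithelial genes Epcam and Krt8 were at 1498 to 1734 and 2694 to 3878 CPM, far above any of the lymphocyte genes.

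Of the 36 genes, 32 passed the filter on low counts, and Cd2, Cd5, Cd28 and Xcl1 did not. None of the 32 passed an adjusted p of 0.05 in edgeR's quasi-likelihood test of cKO against WT, beside 0.0136% of the 14701 genes tested (0.00680% higher and 0.00680% lower in cKO). At an unadjusted p of 0.05 there was 1 (Il7r), higher in cKO, beside 3.90% of all genes (1.83% higher and 2.07% lower), and DESeq2 gave 0 after adjustment, beside 0.279% of all genes, and 3 before it (Il7r, Cd6 and Thy1), beside 4.15%. DESeq2 assigned Il7r no adjusted p. The groups did not overlap for 1 of the 36 (Il7r), beside 3.21% of all genes tested. The adjusted p in edgeR was 0.374 for Il7r and 0.921 to 0.996 for the other 31. The point estimates were mostly on one side, with 29 higher and 3 lower in cKO and a median log2 fold change of 0.40, where 50.5% of all tested genes were higher and their median was 0.0022. Fitted with no filter, all 36 genes divided into 31 higher and 5 lower with a median of 0.41. The SE of these fold changes had a median of 0.49, larger than the 0.17 of all tested genes. Without cKO library 3 the split was 18 higher and 14 lower with a median of 0.01, and without WT library 4 it was 32 higher of 33 genes tested with a median of 0.85.

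**Figure D1:**
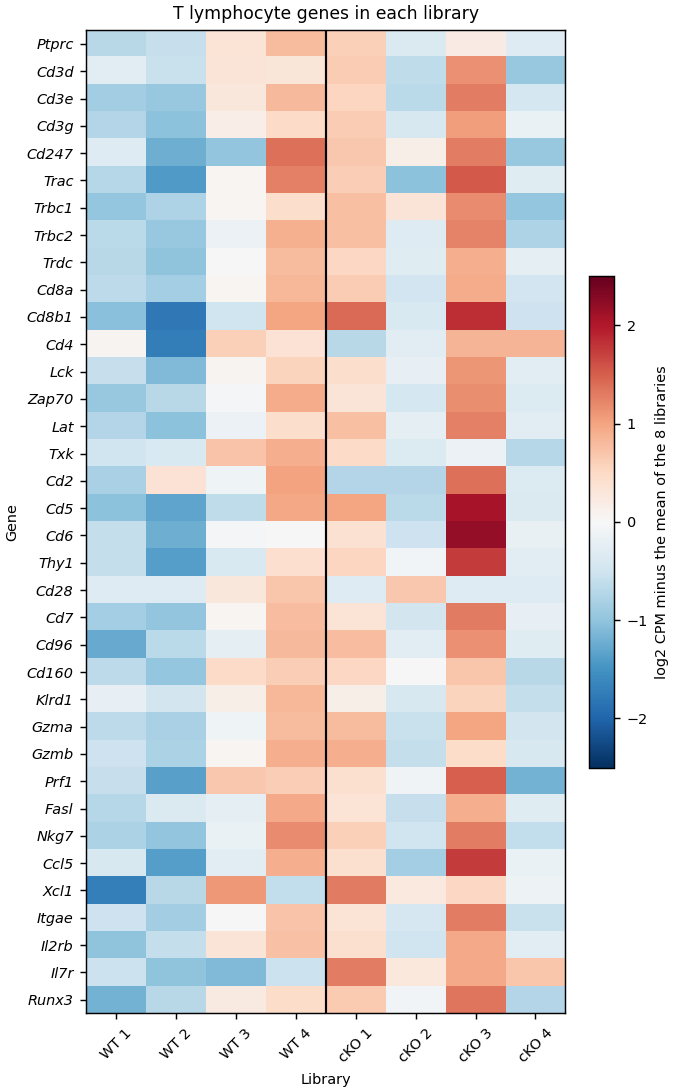
Level of each of the 36 genes (rows) in each library (columns, WT left of the black line and cKO right of it), as log2 CPM (prior count 2) minus the mean of the 8 libraries, on a colour scale from blue (below) to red (above). Whole columns share a colour, with WT library 4, cKO library 1 and cKO library 3 red and WT libraries 1 and 2 blue, while Il7r alone is blue throughout WT and red throughout cKO.

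The invariant chains of the receptor varied between libraries of 1 genotype more than between the genotypes. Cd3e, an epsilon chain needed by every T cell receptor, was at 6.10, 5.75, 13.7 and 19.9 CPM in WT libraries 1 to 4 and at 16.2, 6.97, 27.2 and 8.22 CPM in cKO libraries 1 to 4. Its groups overlapped, since the 2 lowest libraries of all were WT and the next 2 were cKO, and the log2 fold change of cKO over WT was 0.37 ± 0.55 (SE), as which the values with ± in parentheses after each gene are given from here on. Cd3g, the gamma chain, was at 7.0, 5.69, 13.2 and 16.3 CPM in WT and 18.2, 8.74, 24.4 and 10.4 CPM in cKO (0.56 ± 0.41). Cd3d, the delta chain, was at 2.92, 2.38, 4.51 and 4.40 CPM in WT and 5.63, 2.24, 8.03 and 1.80 CPM in cKO (0.32 ± 0.45). For Cd3d the lowest library of all was therefore a cKO library, although the highest was one too. These 3 genes share 40.1 kb of chromosome 9 (Cd3g at chr9:44969572-44980431, Cd3d at chr9:44981786-44987339 and Cd3e at chr9:44998740-45009627). Cd247, the zeta chain with most of the signalling motifs of the complex, was at 1.54, 0.774, 0.927 and 5.26 CPM in WT and 3.20, 2.19, 4.89 and 0.963 CPM in cKO (0.41 ± 0.66). WT library 4 stood far above the other WT libraries for Cd247, and leaving it out moved the fold change to 1.37.

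The constant regions of the receptor chains showed both alpha beta and gamma delta T cells. Trac, the constant region of the alpha chain, was at 1.86, 1.11, 3.21 and 7.64 CPM in WT and 4.86, 1.48, 9.27 and 2.5 CPM in cKO (0.40 ± 0.69). Trdc, the constant region of the delta chain, was at 4.03, 3.21, 6.61 and 11.4 CPM in WT and 9.48, 5.32, 12.5 and 5.52 CPM in cKO (0.38 ± 0.42). Both genes were lowest in WT library 2, and both were highest in cKO library 3. Trbc1 and Trbc2 are the alternative constant regions of the beta chain, nearly identical in sequence, so that reads may be divided between them in an uncertain way. Trbc1 was at 1.48, 1.71, 3.09 and 4.10 CPM in WT and 5.15, 3.78, 6.97 and 1.48 CPM in cKO (0.75 ± 0.46), and Trbc2 was at 3.13, 2.54, 4.51 and 9.42 CPM in WT and 8.53, 4.02, 12.0 and 2.89 CPM in cKO (0.49 ± 0.52). Both overlapped between the groups, with cKO library 4 among the low libraries each time. Per length, Trac was at 4.22 FPKM and Trdc at 1.86 FPKM over the 8 libraries, and the FPKM of Trdc was between 0.325 and 0.871 of that of Trac. The log2 ratio of their CPM was 1.07 ± 0.39 (SD, n = 4) in WT and 1.10 ± 0.59 in cKO, so the balance of the 2 chains differed between the groups by 0.03, less than the spread within either.

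Variable, diversity and joining segments of the receptor were counted too thinly for most single genes, since 118 of the 254 segments in the table were at 0 in every library and 2 were tested. Trgv2, a gamma chain segment, was counted 16, 26, 34 and 83 times in WT and 45, 30, 110 and 37 times in cKO (log2 fold change 0.47 ± 0.56). Trgj4, a joining segment of the gamma chain, was counted 10, 2, 4 and 22 times in WT and 13, 7, 14 and 13 times in cKO. The Trbv segments together had 28, 18, 31 and 40 counts in WT and 43, 19, 100 and 34 in cKO. In cKO library 3, 38 of those 100 counts belonged to the single segment Trbv16, which had 1 to 8 counts in every other library, a gene chosen for mention after its values were seen.

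Of the 6 ratios formed between genes of a library, that of the CD8 chains differed most between the groups. Cd8a, the alpha chain of CD8, was at 19.6, 17.2, 31.7 and 54.9 CPM in WT and 47.6, 22.2, 58.9 and 22.2 CPM in cKO (0.29 ± 0.47). Cd8b1, the beta chain, which marks conventional CD8 T cells, was at 0.636, 0.332, 0.989 and 2.93 CPM in WT and 4.03, 1.06, 5.45 and 0.963 CPM in cKO. Its log2 fold change of 1.25 ± 0.74 was the third highest of the 32, with the widest SE (edgeR unadjusted p = 0.127, adjusted p = 0.921), and was 0.74 without cKO library 3 and 2.15 without WT library 4. Per length, Cd8b1 reached 7.95%, 4.73%, 7.65% and 13.1% of the FPKM of Cd8a in WT and 20.7%, 11.8%, 22.7% and 10.6% in cKO. WT libraries 1 to 3 lay below every cKO library, whereas WT library 4 lay above cKO libraries 2 and 4, so the groups overlapped through 1 library. On the log2 scale of CPM the ratio was -4.97 ± 0.60 in WT and -3.98 ± 0.56 in cKO (SD, n = 4 each), a difference of 0.99. The 2 genes are neighbours on chromosome 6, Cd8b1 at chr6:71322788-71337494 and Cd8a at chr6:71373427-71379173, 35.9 kb apart. Cd4, the coreceptor of helper T cells, was near the limit of detection with 1 to 12 counts per WT library and 4 to 16 per cKO library. It was at 0.477, 0.0553, 0.741 and 0.611 CPM in WT and 0.237, 0.354, 0.899 and 0.899 CPM in cKO (0.35 ± 0.62), and its FPKM was 0.29% to 3.65% of that of Cd8a.

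**Figure D2:**
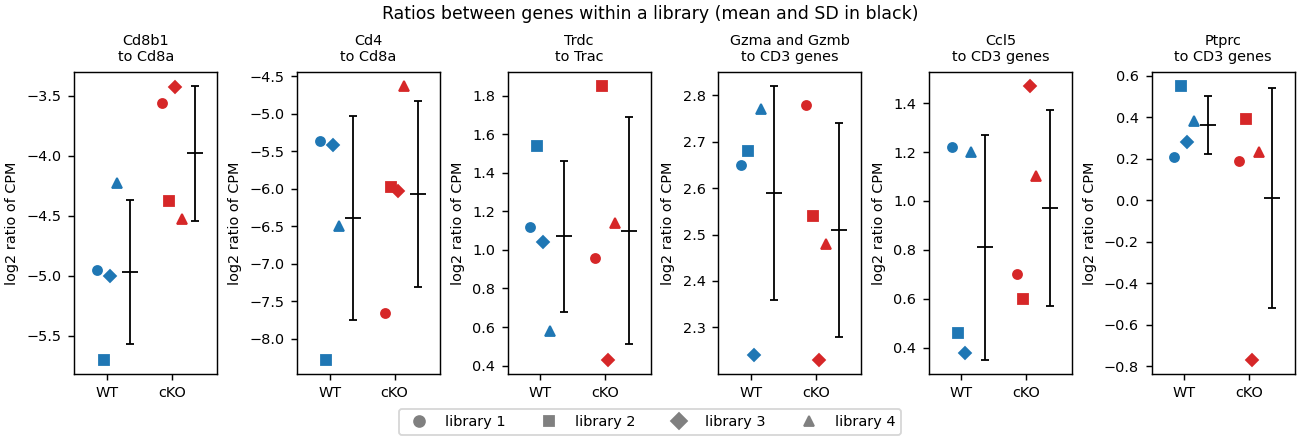
Log2 ratio of CPM between genes of 1 library, for 6 pairs, with a point for each library, blue for WT and red for cKO, its shape giving the library number, and a black bar for the mean and SD of 4 libraries. For Cd8b1 to Cd8a 3 WT libraries lie below all cKO libraries and WT library 4 lies among them, while the groups overlap widely for the other pairs and cKO library 3 is lowest for Ptprc.

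Signalling genes behind the receptor followed the same libraries with 1 exception. Lck, the kinase bound to CD4 and CD8, was at 7.42, 5.14, 11.6 and 16.5 CPM in WT and 15.2, 9.69, 24.0 and 9.24 CPM in cKO (0.52 ± 0.41). Zap70, the kinase recruited to phosphorylated CD3 chains, was at 3.29, 3.92, 6.30 and 12.4 CPM in WT and 8.12, 4.73, 14.6 and 5.01 CPM in cKO (0.33 ± 0.49). In both genes WT library 4 exceeded 3 of the 4 cKO libraries. Lat, the membrane adaptor that ZAP70 phosphorylates, was at 1.86, 1.49, 2.84 and 4.34 CPM in WT and 5.39, 2.66, 7.75 and 2.57 CPM in cKO. Lat had the fifth highest fold change (0.81 ± 0.43, edgeR adjusted p = 0.921), and was 0.43 without cKO library 3. Txk, a kinase of the TEC family expressed in T cells, had the lowest fold change of all (-0.45 ± 0.40, edgeR adjusted p = 0.921) and was at 1.43, 1.55, 3.46 and 3.97 CPM in WT and 2.90, 1.60, 1.85 and 1.22 CPM in cKO. Unlike its neighbours in the pathway, Txk was not raised in cKO library 3.

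Ptprc encodes CD45, the phosphatase of all white blood cells that primes LCK. It was at 18.6, 20.2, 38.2 and 52.7 CPM in WT and 45.8, 23.5, 34.9 and 23.9 CPM in cKO, and its means of 32.4 ± 16.2 and 32 ± 10.6 CPM (SD, n = 4) were nearly equal (-0.01 ± 0.37). Relative to the 3 CD3 genes its log2 ratio lay between 0.21 and 0.55 in WT and between 0.19 and 0.39 in cKO libraries 1, 2 and 4, but at -0.77 in cKO library 3. Ptprc, at 18313 bases, and Txk, at 10955 bases, are the longest of the 32 and the 2 that fall in the longest of 4 equal length classes of all tested genes (from 6162 bases). In cKO library 3 they stood 0.24 above and 0.17 below (-0.17) their mean in the other 7 libraries on the log2 scale, where the other 30 genes had a median of 1.34 above theirs. Over all tested genes that library had a median deviation of 0.06, 0.10, 0.01 and -0.14 from the shortest to the longest class, and the part of this trend in the values of Ptprc and Txk was not tested. In the other libraries with high lymphocyte genes both were near the rest, at 0.92 and 1.04 beside a median of 0.90 in WT library 4 and at 0.69 and 0.54 beside 0.65 in cKO library 1.

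The surface genes Cd6 and Thy1 were among the 4 highest fold changes. Cd6, a scavenger receptor family protein of conventional T cells that binds CD166, was at 1.27, 0.774, 1.92 and 1.96 CPM in WT and 2.61, 1.36, 9.44 and 1.73 CPM in cKO. The fold change of Cd6 was 1.36 ± 0.62 on the log2 scale (unadjusted p = 0.0521, adjusted p = 0.921 in edgeR) and 0.37 when cKO library 3 was left out. Thy1, the glycoprotein that marks mouse T cells, was at 1.7, 0.940, 1.98 and 3.55 CPM in WT and 3.85, 2.48, 9.10 and 2.12 CPM in cKO (1.11 ± 0.52, unadjusted p = 0.0553, adjusted p = 0.921 in edgeR) and at 0.47 without that library. In both genes the value of cKO library 3 was more than any other library had, and the remaining cKO libraries overlapped with WT. Cd5, a related receptor that dampens signalling, ranged from 2 to 16 counts in WT and 4 to 40 in cKO. Cd2, an adhesion receptor, ranged from 2 to 11 and from 2 to 16 counts. Both were highest in cKO library 3, and both were too thinly counted for the test. Cd28, the costimulatory receptor that many intraepithelial lymphocytes lack, was at 0 to 2 counts in every library, under the 3 counts taken as the limit of detection (0.16 to 0.199 CPM per library).

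Cd7, Cd96, Cd160 and Klrd1 are receptors that these lymphocytes share with natural killer cells. Cd7 was the most abundant surface gene of the 36 per length, at 27.4 FPKM over the 8 libraries, and lay between 13.9 and 47.3 CPM in WT and between 19.9 and 67.6 CPM in cKO (0.49 ± 0.52). Cd96 lay between 1.7 and 7.52 CPM in WT and between 3.4 and 9.49 CPM in cKO (0.63 ± 0.48), and Cd160 between 2.16 and 6.66 and between 2.63 and 7.02 CPM (0.21 ± 0.41). Klrd1, the CD94 chain of receptors for the Qa-1 molecule, was at 4.29, 3.59, 5.56 and 8.93 CPM in WT and 5.51, 3.72, 7.36 and 3.27 CPM in cKO. Its point estimate of -0.17 ± 0.33 was the second lowest, and WT library 4 was its highest library of all. All 4 receptors overlapped between the groups.

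Effector genes were the most abundant of the 36 per length. Gzma, a granzyme with trypsin-like activity, had a mean of 120 FPKM over the 8 libraries, Ccl5 63.4 FPKM and Gzmb 35.3 FPKM, followed by Cd7 at 27.4, Nkg7 at 10.4, Cd8a at 9.32, Trbc2 at 8.4 and Itgae at 7.04 FPKM. Gzma was at 68.6, 61.7, 101 and 189 CPM in WT and 188, 73.7, 216 and 79.3 CPM in cKO (0.41 ± 0.49). Gzmb, the caspase-activating granzyme, was at 32.2, 26.6, 47.8 and 86.5 CPM in WT and 87.6, 30.8, 63.9 and 34.9 CPM in cKO (0.17 ± 0.46). Here WT library 4 and cKO library 1 were high to the same extent, and cKO library 3 was not the highest library for Gzmb. The 2 granzymes together kept a steady ratio to the 3 CD3 genes, with a log2 ratio of 2.59 ± 0.23 in WT and 2.51 ± 0.23 in cKO, although Gzma varied 3.07-fold and 2.93-fold, and Gzmb 3.25-fold and 2.84-fold, within WT and cKO. The difference of -0.08 was smaller than either SD. Ccl5, the chemokine RANTES, was at 37.2, 19.0, 40.8 and 92.9 CPM in WT and 65.2, 27.2, 166 and 43.8 CPM in cKO. Its fold change of 0.67 ± 0.68 became -0.061 without cKO library 3.

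Genes of the killing machinery and a second chemokine were lower. Prf1, which encodes the pore-forming perforin, was at 0.848, 0.442, 2.16 and 2.08 CPM in WT and 1.78, 1.24, 3.93 and 0.514 CPM in cKO (0.45 ± 0.62). Nkg7, a membrane protein of cytotoxic granules, was at 4.56, 3.98, 7.11 and 18.5 CPM in WT and 12.3, 5.67, 19.7 and 5.2 CPM in cKO (0.33 ± 0.60). Both had their group maxima in WT library 3 or 4 and in cKO library 3. Fasl, the ligand of the death receptor Fas, lay between 0.795 and 2.75 CPM in WT and between 0.886 and 2.70 CPM in cKO (0.17 ± 0.46). Xcl1, the chemokine lymphotactin, had 1, 4, 17 and 4 counts in WT and 21, 9, 12 and 6 in cKO, and was highest in cKO library 1.

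**Figure D3:**
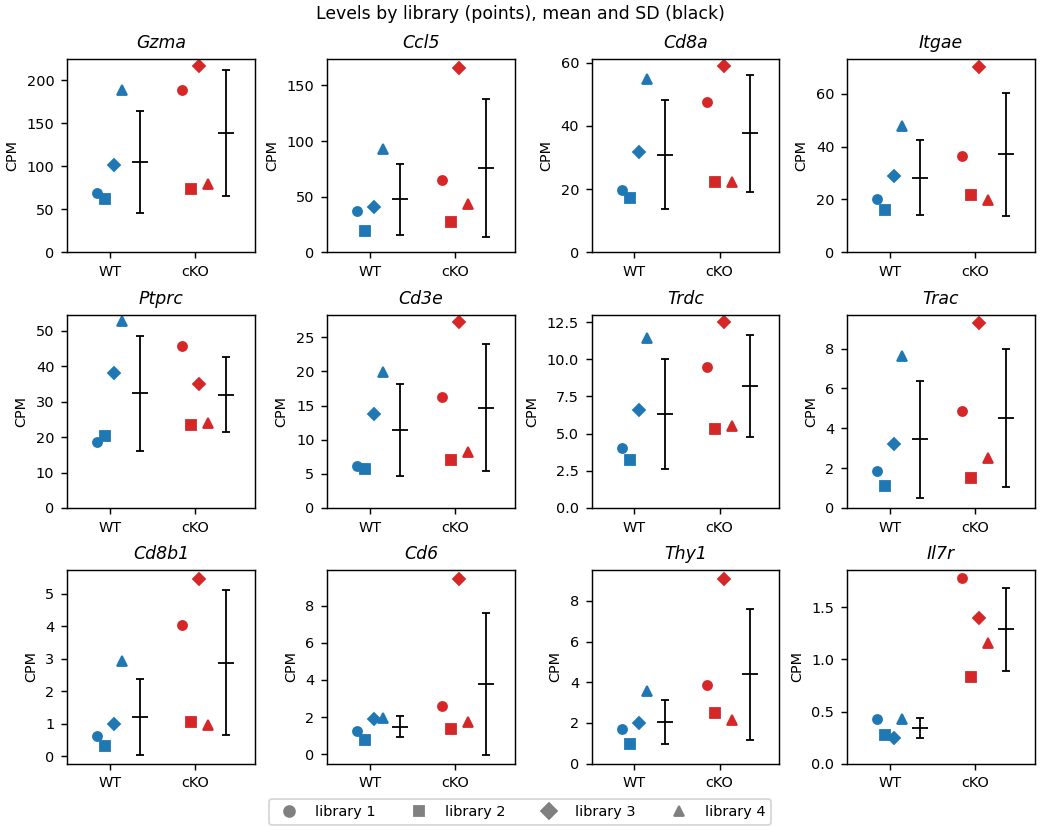
CPM of 12 of the genes in each library, blue for WT and red for cKO with the shape giving the library number, and the mean and SD of each group in black; axes differ between panels. In every panel but that of Il7r the red and blue points overlap, and the high points are mostly WT library 4, cKO library 1 and cKO library 3.

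Itgae, the CD103 chain that pairs with beta 7 integrin, was at 20.3, 15.9, 29.0 and 47.7 CPM in WT and 36.5, 21.6, 70.2 and 19.6 CPM in cKO (0.39 ± 0.49). Runx3, the transcription factor that sets the CD8 and residency programmes and is also expressed by other cells, was at 1.86, 2.65, 5.13 and 5.99 CPM in WT and 6.93, 4.19, 11.2 and 2.57 CPM in cKO (0.68 ± 0.49). Both overlapped, with cKO library 4 below WT library 4 in each case. Il2rb, the beta chain shared by the receptors of interleukin 2 and interleukin 15, was at 7.32, 9.78, 18.6 and 24.9 CPM in WT and 19.7, 10.6, 28.7 and 12.1 CPM in cKO (0.23 ± 0.44). It followed the granzymes and CD3 genes from library to library.

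Il7r, the alpha chain of the interleukin 7 receptor, was the single gene of the 36 whose groups did not overlap. Among all tested genes 3.21% did not overlap, and 1 gene in 36 is near that share. Il7r was counted 8, 5, 4 and 7 times in WT and 30, 14, 25 and 18 times in cKO, or 0.424, 0.276, 0.247 and 0.428 CPM beside 1.78, 0.827, 1.40 and 1.16 CPM. The means were 0.344 ± 0.0956 and 1.29 ± 0.401 CPM (SD, n = 4), every cKO library lay above every WT library, and no other gene of the 36 separated the groups, where 1.41% of all tested genes had all cKO libraries above WT and 1.80% had them below. The log2 fold change was 1.88 ± 0.38 (unadjusted p = 0.000381, adjusted p = 0.374 in edgeR), so it did not pass over all genes tested, and it stayed between 1.69 and 2.06 when any 1 library was left out. Over the alternatives that gave one, its adjusted p lay between 0.190 (limma voom with sample quality weights) and 0.897 (edgeR without WT library 1). DESeq2, the filter of CPM 1 and the fits with an FPKM minimum gave Il7r none. Il7r passed the filter on low counts through the cKO libraries alone, since all WT libraries were under 10 counts, so a gene with these WT values was testable only if higher in cKO. In FPKM its mean of 0.173 over the 8 libraries was among the lowest of the 36. Between the groups its order differed from that of most lymphocyte genes, with WT library 4 at 0.428 CPM below cKO library 4 at 1.16 CPM. Within cKO, libraries 1 and 3 were its highest, as for most of them. Within WT, libraries 4 and 1 were nearly level for Il7r, at 0.428 and 0.424 CPM from 7 and 8 counts. For most of the lymphocyte genes, WT library 4 was instead far above WT library 1.

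Il7r lies on the same chromosome as the targeted gene, at chr15:9505788-9530176 on the minus strand of GRCm38, and starts 2.71 Mb beyond the end of Rictor (chr15:6708379-6800401). Of the 21 tested genes within 3 Mb of Rictor, 3 had an unadjusted edgeR p under 0.05 (14.3%, beside 3.90% of all genes), namely Oxct1, Gm7666 and Il7r, with a median log2 fold change of -0.04 for the 21. Within 10 Mb the same 3 were the only ones among 39 genes (7.69%). Il7r is itself counted in these shares, and the 3 Mb window ends shortly beyond it. These shares are therefore not separate from the value of Il7r. The part of this position in the value of Il7r was not tested.

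**Figure D4:**
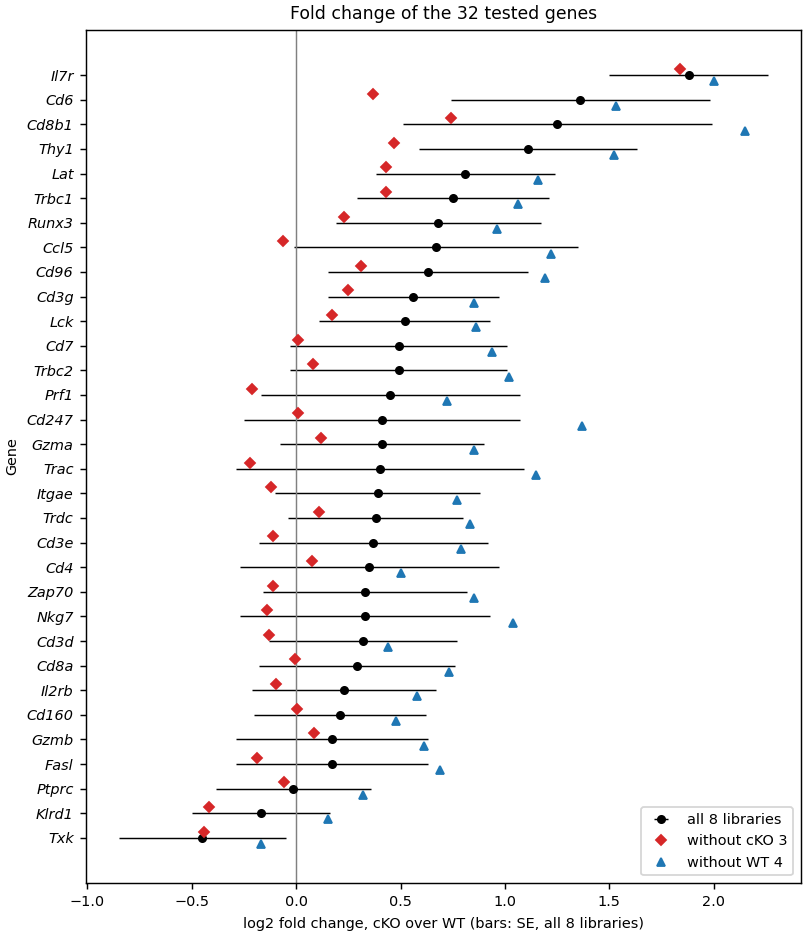
Log2 fold change of cKO over WT from edgeR for the 32 tested genes, with all 8 libraries (black points, bars of 1 SE), without cKO library 3 (red) and without WT library 4 (blue). The black points run from -0.45 for Txk to 1.88 for Il7r, most red points lie near 0, most blue points lie further to the right, and Il7r keeps 1.84 and 2.0 in these 2 fits.

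The spread between libraries of 1 genotype was the main feature of these genes. Summed over all 36, they were at 283, 239, 447 and 776 CPM in WT libraries 1 to 4 and 685, 313, 950 and 338 CPM in cKO libraries 1 to 4. The means of 436 ± 244 and 572 ± 304 CPM (SD, n = 4) differed by less than either SD, while the highest library of a group was 3.25-fold above the lowest in WT and 3.03-fold in cKO. For single tested genes that fold had a median of 3.33 in WT, from 1.73 for Il7r to 13.4 for Cd4, and of 3.25 in cKO, from 1.95 for Ptprc to 7.66 for Prf1. The SD of log2 CPM (prior count 2) within WT had a median of 0.76 over the 32 genes beside 0.19 over all tested genes, and within cKO 0.78 beside 0.27. All 32 lay above the median of all genes in both groups, and 28 in WT and 26 in cKO lay above its 90th percentile (0.59 and 0.63). Without WT library 4 the median SD in WT was 0.53, and without cKO library 3 that in cKO was 0.61. At the same abundance, edgeR's biological coefficient of variation, the relative spread beyond counting error, was above its trend for 30 of the 32 in each group, beside 21.8% of all genes in WT and 29.3% in cKO, with medians of 43.2% and 40.8%. The spread was thus wide in both genotypes, and it was wider in cKO for 14 of the 32, where 65.2% of all genes had the wider SD in cKO.

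**Figure D5:**
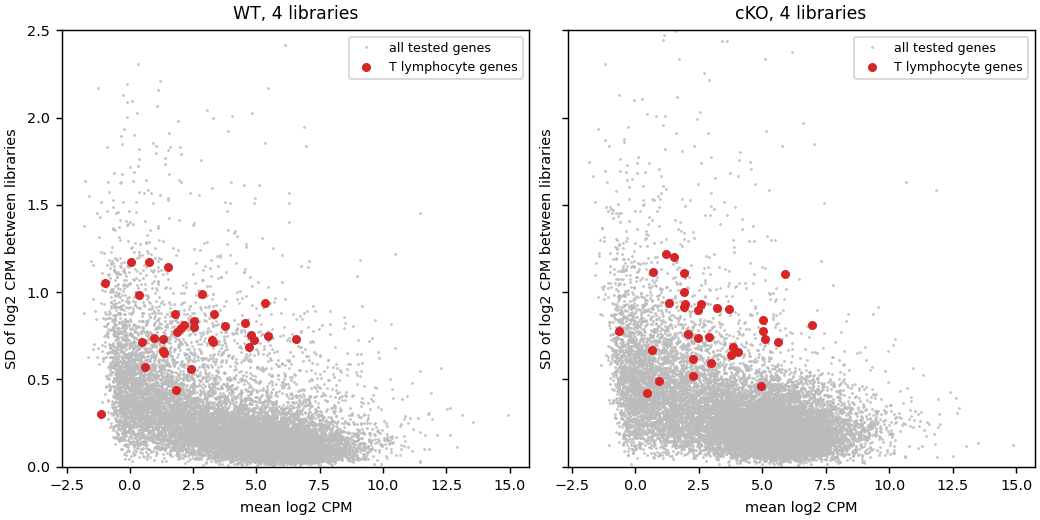
SD of log2 CPM (prior count 2) between the 4 libraries of a group against mean log2 CPM, for all tested genes (grey) and the 32 lymphocyte genes (red), in WT (left) and cKO (right); a few grey points lie above the upper limit of the axis. The red points lie at SDs of 0.30 to 1.17 in WT and 0.42 to 1.22 in cKO, above most grey points of the same mean.

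The same few libraries were high for most of the genes. Of the 36, 27 were highest in cKO library 3, 6 in WT library 4 (Ptprc, Cd247, Cd28, Txk, Fasl and Klrd1) and 3 in cKO library 1 (Xcl1, Gzmb and Il7r). Among WT alone, library 4 was the highest for 32 of the 36, where 25.6% of all tested genes had their WT maximum, and libraries 2 and 1 were the lowest for 24 and 11. Among cKO alone, library 3 was the highest for 30, beside 33.8% of all tested genes, and libraries 2 and 4 were the lowest for 17 each. As a median over the genes, centred log2 CPM was -0.68, -0.95, 0.04 and 0.80 in WT and 0.57, -0.40, 1.16 and -0.35 in cKO. From low to high the order was WT 2, WT 1, cKO 2, cKO 4, WT 3, cKO 1, WT 4 and cKO 3, and each pair of neighbours in it differed by less than the pooled within-group SD of 0.77.

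Within cKO library 3 the genes were not raised evenly. Cd6 stood 2.5 above its mean in the other 7 libraries on the log2 scale, Cd8b1 2.11, Thy1 and Ccl5 2.0 each and Trac 1.75. At the other end, after Txk and Ptprc, stood Gzmb at 0.53, Klrd1 at 0.63, Cd160 at 0.79, Cd4 at 0.95, and Fasl and Trdc at 1.04 each. Itgae and Cd7 were between these ends, at 1.46 and 1.48. These values come from 1 library and have no test.

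Other genes of T cells, from lists in the same pathways, had no call, and their medians were positive except for the gamma delta list. Of 30 further genes of T cell receptor signalling, 28 were tested, 23 were higher and 5 lower in cKO, with a median log2 fold change of 0.25, and 0 had an edgeR adjusted p under 0.05. Their highest library was cKO library 3 for 18 and WT library 4 for 7. By smallest p, Itgal, the alpha chain of the integrin LFA-1, was at 1.38, 1.27, 2.6 and 4.40 CPM in WT and 6.34, 3.31, 7.02 and 1.28 CPM in cKO (0.91 ± 0.54), followed by Dgkz (0.21 ± 0.13), a diacylglycerol kinase that epithelial cells also express. Among 13 tested genes of cytotoxic and effector function, 10 were higher and 3 lower (median 0.20), led by Rab27a (-0.18 ± 0.12), Serpinb9 (0.34 ± 0.23) and Furin (0.23 ± 0.17), which are likewise not confined to lymphocytes. Of 16 tested homing and residence genes, 13 were higher and 3 lower (median 0.23). In that list Itgb7, the partner of CD103, was counted 133, 92, 141 and 220 times in WT and 241, 130, 580 and 104 times in cKO (0.84 ± 0.53), again highest in cKO library 3, and Gpr18, a receptor of intraepithelial lymphocytes, had a value of 0.94 ± 0.50. Of 8 tested innate-like receptors, 7 were higher and 1 lower (median 0.21), with Lag3 at 0.63 ± 0.45, Cd226 at 0.65 ± 0.59 and Klra5 at -0.37 ± 0.59, and 6 of them were highest in WT library 4. The lists of transcription factors (12 higher and 4 lower of 16, median 0.20), lymphocyte cytokine receptors (11 higher and 5 lower of 16, median 0.21) and gamma delta T cell genes (3 higher and 4 lower of 7, median -0.00) had no adjusted call either.

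In those lists 3 genes had all cKO libraries above WT, as 1.41% of all tested genes did, and none of them passed adjustment (edgeR adjusted p = 0.921 for each). They came from the transcription factors (16 tested), homing and residence genes (16 tested) and lymphocyte cytokine receptors (16 tested). The lists with 28, 13, 8 and 7 tested genes had none. Whether 3 is more than the share of all genes would give was not tested. Tcf7, a transcription factor of naive and memory T cells that acts with beta-catenin in other cells, was at 8.27, 9.29, 10.2 and 11.3 CPM in WT and 11.8, 15.5, 13.9 and 14.6 CPM in cKO (0.52 ± 0.15, unadjusted p = 0.00598). Klf2, which promotes exit from tissue, was counted 6, 9, 12 and 11 times in WT and 15, 24, 16 and 15 times in cKO (0.91 ± 0.36). Il18r1, a receptor chain for interleukin 18, was counted 16, 12, 5 and 16 times in WT and 30, 28, 19 and 20 times in cKO (1.03 ± 0.37). Tcf7 and Klf2 were highest in cKO library 2 and Il18r1 in cKO library 1, not in the library where most of the 36 genes were. Btnl6, a butyrophilin-like gene of enterocytes whose family members maintain gamma delta lymphocytes, was at 166, 193, 253 and 155 CPM in WT and 118, 83.8, 133 and 158 CPM in cKO (-0.64 ± 0.20, unadjusted p = 0.0101, adjusted p = 0.921 in edgeR), with overlapping groups.

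Markers of other cells were measured beside the lymphocyte genes, and their part in the values above was not tested. Summed over the list, macrophage and dendritic cell markers were at 17.8 to 25.3 CPM in WT and 16.2 to 45.8 CPM in cKO, highest in cKO library 3. Of the 6 tested, 5 were higher and 1 lower, with Csf1r, the receptor for the growth factor of macrophages, at 1.68 ± 0.60 (edgeR adjusted p = 0.921). B cell markers were at 8.85 to 21.9 CPM in WT and 7.06 to 16.5 CPM in cKO, highest in WT library 3, with 2 higher and 5 lower of 7 tested. Plasma cell markers summed to 338 to 364 and 344 to 533 CPM, with 5 of the 7 tested highest in cKO library 3. In that library Igha, the heavy chain of IgA, was at 69.9 CPM beside 6.36 to 20 CPM in the others, and Igkc, the kappa light chain, at 44.4 CPM beside 5.2 to 19.4 CPM, while most of the sum came from Xbp1 and Sdc1, which epithelial cells also express. The list of natural killer and innate lymphoid cells was at 30.7 to 48.3 and 36.1 to 47.3 CPM, and neutrophil markers were at no more than 0.306 CPM, with Ly6g at 0 in every library. Mast cell and basophil markers were at 41.5 to 60.1 CPM in WT and 49.2 to 66.3 CPM in cKO, stromal markers at 11.6 to 17.5 and 13.4 to 22.9 CPM, and endothelial markers at 5.73 to 10.8 and 5.39 to 8.71 CPM. Of the defining natural killer and innate lymphoid genes, Ncr1, Klrb1c, Il22 and Il23r had at most 3 counts in any library. The 12 epithelial markers summed to 12109 to 14087 CPM in WT and 11515 to 16257 CPM in cKO, again highest in cKO library 3. Enterocyte markers ran from 9768 to 25135 CPM in WT, with 13 of 14 highest in WT library 3, a library in which the lymphocyte genes were near their overall mean.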

How the data were processed

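RNA of intestinal epithelial cells was sequenced in 8 libraries, 4 WT and 4 cKO. Per the series' design text, Hisat2 aligned the reads and Stringtie followed. Not given in the sources used here are versions, build, counting program and strand setting. The authors deposited whole-number counts of each gene, not normalized, and FPKM of the same genes, which scale counts by gene length and library total. Coordinates are those of the deposited table, and for 35 of the 36 genes they are identical in GENCODE M21 (GRCm38).

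Counts were tested with edgeR 4.0.16 (R 4.3.3; quasi-likelihood F-test, robust fit, TMM factors, filterByExpr with a minimum count of 10, genotype as the single term), and p-values were adjusted by Benjamini-Hochberg across the 14701 tested genes, with a threshold of 0.05. CPM uses TMM-scaled totals. SDs of log2 CPM use a prior count of 2, and the SE of a fold change comes from its F statistic. The fit was tested on simulated data in which every gene had the same dispersion and varied independently. The lymphocyte genes were more variable than most genes and varied together. That simulation therefore does not give the error rates of the fit for them.

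Alternatives were other scaling factors (DESeq2-style, upper-quartile), the filter dropped or set to CPM 1 in 4 libraries, each library or both libraries 3 left out, the replicate number as a block, limma 3.58.1 (voom with sample quality weights, and log2(FPKM + 0.1) or log2(FPKM + 1), with a mean FPKM minimum of 0.5 or without), DESeq2 1.42.0, and for the spread a prior count of 0.5. Cd2, Cd5, Cd28 and Xcl1 were counted too thinly to be tested.

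The rule for named genes accounts for all 36, gives values in each library for 24 of them that define lineage and function and for the 3 highest and 3 lowest fold changes, and names up to 3 genes of smallest p in each further list. Genes, lists and alternatives were chosen with earlier results of these data known. RefSeq promoters were searched for the letters given; proteins were not analysed here. In the further lists, 1 gene that meets this rule is not reported here.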

Additional observations from a re-analysis of the deposited data

Results flagged for a closer look

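In 84 groups of 4 libraries examined for 1 library far from the other 3, 5 stood out. The genes share the same libraries and vary together, so the groups are not independent. The number that chance would give is therefore not known. The gap to the nearest library, as a share of the range of the group, was above the critical value of Dixon's test in each. Cd6 in cKO had a gap of 0.846, with cKO library 3 at 9.44 CPM and the others at 1.36 to 2.61 CPM. Cd2 in cKO had a gap of 0.905, again through cKO library 3 (0.899 CPM beside 0.118 to 0.193 CPM). In WT, library 4 stood apart for Cd247 (gap 0.83, 5.26 CPM beside 0.774 to 1.54 CPM) and for Cd5 (gap 0.843, 0.978 CPM beside 0.111 to 0.247 CPM). Cd28 in cKO had a gap of 1 because library 2 had 2 counts (0.118 CPM) and the other cKO libraries had 0, all under the limit of detection.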

How the results depend on the processing

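No lymphocyte gene passed an adjusted p of 0.05 under any alternative run. The number of all genes called was 2, and was 10 with no filter on low counts, 4 without both libraries 3, 41 with DESeq2, 0 with the replicate block, 0 with limma on log2(FPKM + 0.1) and 0 on log2(FPKM + 1) (mean FPKM at least 0.5), and 0 to 3 when 1 library was left out; the cause was not tested. The replicate numbers were not taken to pair the libraries, since the labels do not say that they do. Deviations of same-numbered libraries correlated at -0.11, 0.11, 0.15 and 0.14, and those of differently numbered libraries at -0.2 to 0.15. These values cannot settle whether the libraries are paired. With the replicate block 30 of the 32 genes were higher with a median of 0.46. Leaving out 1 library gave 18 to 32 genes higher and median fold changes of 0.01 to 0.85.

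Of 613 fold changes of the 36 genes under alternatives, 37 had their sign turned, 11 of them without cKO library 3 and 9 without both libraries 3. Ptprc, at -0.01, was 0.032 without both libraries 3, 0.06 with the block, 0.12 with voom, 0.055 on log2(FPKM + 0.1) with and without the FPKM minimum, and 0.02 on log2(FPKM + 1). With voom Cd3d was at -0.28 and Fasl at -0.0071. Without both libraries 3 the values were Cd3e -0.0078, Cd247 -0.24, Trac -0.25, Zap70 -0.13, Ccl5 -0.13, Fasl -0.28, Nkg7 -0.22 and Itgae -0.11. With 1 library left out, the ranges that crossed 0 were Ptprc -0.24 to 0.32, Cd3d -0.13 to 0.59, Cd3e -0.11 to 0.79, Cd8a -0.0054 to 0.73, Cd4 -0.026 to 0.65, Trac -0.22 to 1.15, Cd160 -0.021 to 0.48, Zap70 -0.11 to 0.85, Ccl5 -0.061 to 1.22, Gzmb -0.16 to 0.61, Prf1 -0.21 to 0.76, Fasl -0.19 to 0.69, Nkg7 -0.14 to 1.04, Itgae -0.12 to 0.77, Klrd1 -0.42 to 0.15 and Il2rb -0.096 to 0.58. DESeq2-style factors, upper-quartile factors, both filters and DESeq2 turned no sign.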
